A study of Mus musculus with 6 samples.

Results

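The paraventricular nucleus of the hypothalamus (PVN) was compared between 6 h and 2 h after a single electroconvulsive seizure (ECS) in C57Bl/6 mice. The comparison used 4 of the 6 arrays of the study: 2 arrays from mice killed 6 h after ECS against 2 from mice killed 2 h after ECS. They were chosen by the time and treatment in their labels, and no measured value was used. The remaining 2 arrays, from sham mice killed at 2 h, are shown as levels and add to the estimate of the spread. ECS was given once under isoflurane through ear clips, at 25 mA for 1 s with 100 pulses per s of 0.5 ms. Sham mice were anaesthetised and handled in the same way without a shock. Each array held a pool of RNA from 2 to 3 mice, cut out by laser from 7 µm sections, and 2 ng of RNA was amplified before labelling. The array experiment was run 2 times on different animals, and replicate 1 and replicate 2 are read here as these runs. The sham arrays are from 2 h only, so the time since the shock and anything else that passes with time cannot be told apart at 6 h. The sources used here do not give the mice's age or sex.

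The PVN holds magnocellular neurons that make oxytocin and vasopressin and parvocellular neurons that make releasing hormones, and through them it drives the pituitary and the adrenal glucocorticoid response. A seizure switches on immediate early genes such as Fos and Egr1, whose transcripts are made within minutes and are short-lived. Their products are transcription factors that act on later genes for kinase brakes, synaptic proteins, chaperones and peptides.

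Values are given as log2 of the quantile-normalised array signal plus 16, so a probe set (the group of probes for a transcript) with no signal stands at 4. Where 2 values are given for a group, replicate 1 comes first. A difference is the mean at 6 h minus the mean at 2 h, with the standard error (SE) from limma, and because of the added 16 it understates the change of dim probe sets. After the 64 control probe sets were left out, 22626 remained, and the 12662 that reached the median of their own array on at least 2 of the 6 arrays were tested. With 1 probe set a gene, these covered 7332 genes.

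The dissection was checked against PVN genes. Oxt, the oxytocin gene, lay at or above 98.3% of all array values at 2 h and 98.7% at 6 h, and Avp, the vasopressin gene, at or above 96.3% and 96.5%. Trh, for thyrotropin-releasing hormone, stood at 97.0% and 96.1%, and Sim1, a transcription factor that specifies PVN neurons, at 88.8% and 87.9%. The deposited median signal per array lay between 25.2 and 40.8. Replicate 1 at 6 h stood apart: its rank correlations with the remaining 5 averaged 0.846, while those arrays averaged 0.869 to 0.890. Its ratio of the 3' to the 5' control probe sets for Gapdh, a sign of RNA length, was 14.1 against 6.43 to 10.5. For the Actb control probe sets the ratio was 0.764 on this array. That value fell inside the range of the remaining arrays, whose lowest was 0.562 and highest 0.771. The 2 controls thus differed on whether its RNA was shorter. On the leading principal component, which held 32.2% of the variance, replicate 1 at 6 h lay at 54.9 while the other 5 arrays lay between -25.3 and 7.03. For many genes whose arrays did not overlap, the value without a single array is given where leaving it out moved the difference strongly. Differences printed without such a value can also depend on a single array. For genes whose arrays overlap, size and often sign depended on single arrays, and their levels are a description. In such tissue pools fewer cells of a type and less RNA per cell cannot be told apart.

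No probe set passed an adjusted p of 0.05 (limma with Benjamini-Hochberg adjustment, 0 of 12662, 0%), and the smallest adjusted p was 0.688. At an unadjusted p under 0.05 there were 438 probe sets (3.46%), 205 higher and 233 lower at 6 h, where 633 would be expected if nothing differed. With the replicate number as a block in the model this count was 720, the smallest adjusted p was 0.382, and again none passed. Leaving out single arrays changed the calls in 1 case: without replicate 2 at 6 h, which leaves replicate 1 alone in its arm and assumes that it varies like the other groups, 3 probe sets passed. These were Irak1 (4.01, adjusted p = 0.00362), Erdr1 (-3.12, adjusted p = 0.0282) and a probe set without a gene name. As a description, 167 probe sets (1.32%) were at least 2-fold higher at 6 h and 216 (1.71%) at least 2-fold lower with both 6 h arrays on 1 side of both 2 h arrays. With the signals left as deposited, without scaling between arrays, lower probe sets made up 27.4% of such differences instead of 56.4%, and the median difference of all genes was 0.16. Of these 383 probe sets, 112 had a lower group mean under 5 on the log2 scale, close to no signal (29.2%, against 3.62% of all tested probe sets). Taking 1 probe set a gene and no fold limit, the 6 h arrays lay entirely above the 2 h arrays for 1049 genes (14.3%) and entirely below for 1157 (15.8%). The gene lists below are read against these shares and against the median difference of all genes, -0.0075.

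The spread between arrays of the same time was of the size of the differences between the times. The median absolute difference was 0.37 between the 2 arrays at 2 h and 0.42 between those at 6 h. Between 6 h and 2 h it was 0.40 within replicate 1 and 0.29 within replicate 2. Across the tested probe sets the difference seen in replicate 1 had a Pearson correlation of 0.014 with that in replicate 2 (Spearman 0.010), and the sign was shared by 50.2%. Probe sets are not independent replicates, and this correlation is a description.

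**Figure D1:**
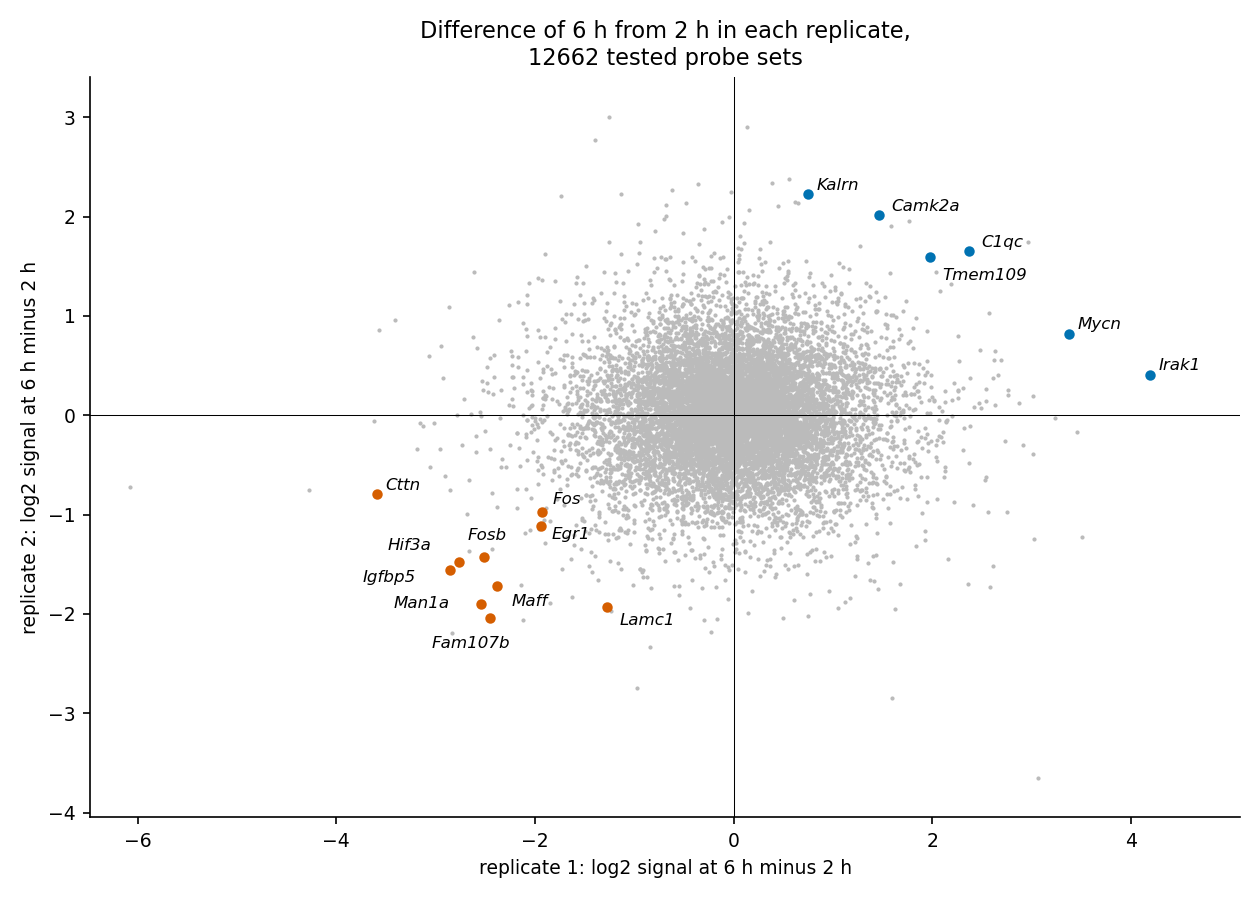
Each grey point is 1 of the 12662 tested probe sets, with the log2 difference of 6 h from 2 h in replicate 1 on the x axis and in replicate 2 on the y axis. Labelled genes in orange were lower at 6 h and those in blue higher. The bulk of points forms a round cloud, and Man1a, Fam107b, Maff, Fosb, Egr1 and C1qc lie away from it in both replicates, while Irak1 and Mycn do so mainly in replicate 1.

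Early-response transcription factors had a lower signal at 6 h than at 2 h. Fos, whose protein joins Jun to form AP-1, stood at 7.25 and 6.81 at 2 h and at 5.32 and 5.83 at 6 h, with 5.04 and 5.02 in the sham arrays. Both 6 h arrays lay below both 2 h arrays and above both sham arrays. The difference was -1.45 ± 0.42 (SE, 2 arrays a group), a 2.74-fold lower level on this scale. Fosb, a close relative of Fos, stood at 6.58 and 6.32 at 2 h and at 4.07 and 4.90 at 6 h, against 4.42 and 4.46 in sham, a difference of -1.97 ± 0.51. It passed the filter on dim probe sets only through the 2 h arrays, so its inclusion depended on a high level there. Maff, a small Maf protein that pairs with other basic leucine zipper factors, stood at 7.25 and 7.27 at 2 h, at 4.87 and 5.56 at 6 h and at 5.04 and 5.57 in sham. Its difference of -2.05 ± 0.43 was 4.14-fold, and its unadjusted p of 0.000664 ranked 5th among all probe sets.

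Egr1, a zinc finger factor that reports neuronal firing, was at 9.45 and 8.90 at 2 h and at 7.51 and 7.79 at 6 h. These 6 h values lay below the sham arrays too, which stood at 8.31 and 8.15. The Egr1 difference was -1.53 ± 0.32, or 2.89-fold, with an adjusted p of 0.999 in limma. Leaving out replicate 1 at 6 h gave -1.37 for Egr1, -1.18 for Fos, -1.55 for Fosb and -1.68 for Maff. With any single array left out, and under every scaling, offset and filter tried, these 4 genes kept a lower signal at 6 h.

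Jun, the main partner of Fos in AP-1, showed a smaller difference. It stood at 9.08 and 9.38 at 2 h and at 8.96 and 8.58 at 6 h, against 8.53 and 7.61 in sham, a difference of -0.46 ± 0.36, and of -0.27 without replicate 2 at 6 h. Jund, a Jun protein present in resting cells, was the tested member that was higher: it stood at 9.71 and 10.61 at 2 h and at 10.73 and 10.89 at 6 h, a difference of 0.65 ± 0.30, and of 0.20 without replicate 1 at 2 h. Junb did not reach the filter and stood near the floor throughout, between 4.08 and 4.95. Of the 12 AP-1 and Maf genes on the array 7 were tested; 6 of these were lower, all 6 without overlap of the arrays, and the median difference was -0.53. Over all 12, tested or not, 9 were lower and the median was -0.42. No member was called by limma. The median was -0.67 within replicate 1 and -0.98 within replicate 2.

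Among the Egr, Klf, Nr4a and other early factors, 11 of 18 on the array were tested, 10 were lower and 8 of these without overlap, with a median of -0.96. Over all 18, 15 were lower and the median was -0.51. Klf6, a Krüppel-like factor, stood at 7.88 and 7.92 at 2 h and at 6.24 and 7.33 at 6 h, against 7.70 and 8.05 in sham. The 6 h arrays thus lay below both other groups, by -1.12 ± 0.41 from 2 h, and by -0.57 without replicate 1 at 6 h. Its other tested probe set differed by 0.15, so the probe sets of Klf6 did not agree. Klf4, another member of the family, stood at 6.64 and 6.07 at 2 h and at 5.32 and 5.39 at 6 h, a difference of -0.99 ± 0.51. Klf2 differed by -0.42 ± 0.46 and passed the filter only through the 2 h arrays. Egr2, the relative of Egr1, differed by -0.61 ± 0.53 with overlapping arrays. Klf10, chosen after its value was seen, differed by -1.65 ± 0.62. Nr4a1, an orphan nuclear receptor that is a common early gene, was not tested. It stood at 5.53 and 4.75 at 2 h and at 6.19 and 4.55 at 6 h, so that the arrays overlapped.

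**Figure D2:**
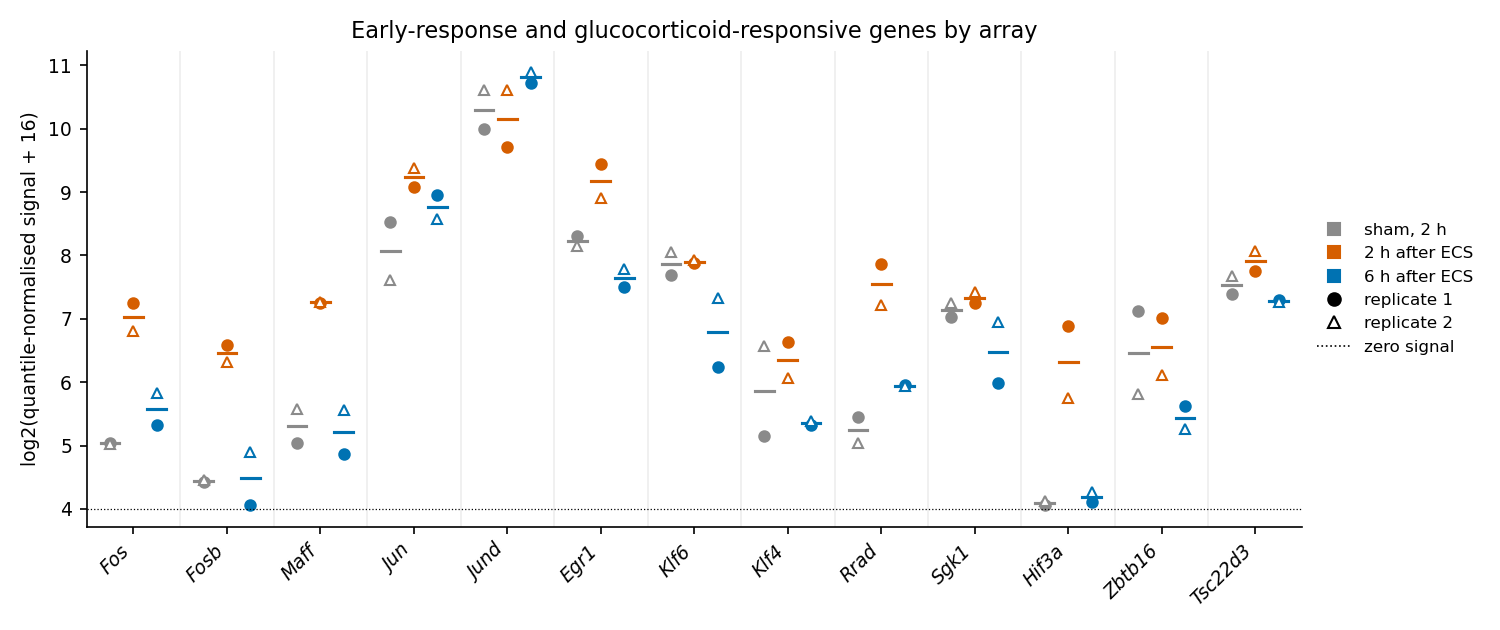
Points give the log2 signal of 13 genes on each array, with circles for replicate 1, triangles for replicate 2, horizontal bars for the mean of the 2 arrays of a group and a dotted line at 4 for no signal. Fos, Fosb, Maff, Egr1, Rrad and Hif3a were high at 2 h (orange) and lower at 6 h (blue) without overlap, while Jund lay higher at 6 h.

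The promoter of Maff carries a full cyclic AMP response element, the site through which CREB acts in active neurons. RefSeq promoters (GRCm38.p6, 250 bases before to 50 after each start) were searched on both strands for TGACGTCA, which reads the same on either strand. It was found in 1 of 11 AP-1 and Maf genes with a promoter in the table (Maff) and in 1 of 13 Egr, Klf and other early genes (Btg2, not tested), and 2.03% of the 27025 genes in the table hold it (1.79% of all 32851 promoters). The AP-1 site TGANTCA was found in 0 of 11 and 0 of 13, and in 8.97% of all genes (7.81% of all promoters). Promoter stretches of 4 genes are given here, each the 250 bases before the start, 5′ to 3′ on the strand of the gene, with the motif in capitals. Maff is shown for its cyclic AMP response element (chr15:79347270-79347519, plus strand), Per1 for its E-box CACGTG (chr11:69098699-69098948, plus strand), and Hspa5 (chr2:34771840-34772089, plus strand) and Pdia6 (chr12:17266339-17266588, plus strand) for the endoplasmic reticulum stress element.
Maff: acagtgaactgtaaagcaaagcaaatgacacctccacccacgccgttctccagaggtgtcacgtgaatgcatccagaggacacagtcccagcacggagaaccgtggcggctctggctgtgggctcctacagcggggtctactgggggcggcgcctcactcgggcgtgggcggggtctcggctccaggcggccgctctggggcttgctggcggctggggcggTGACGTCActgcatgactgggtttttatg
Per1: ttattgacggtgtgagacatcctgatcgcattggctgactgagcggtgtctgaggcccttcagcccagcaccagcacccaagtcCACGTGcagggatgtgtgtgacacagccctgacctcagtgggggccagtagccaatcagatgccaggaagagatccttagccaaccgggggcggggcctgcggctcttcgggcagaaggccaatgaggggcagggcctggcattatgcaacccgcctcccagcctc
Hspa5: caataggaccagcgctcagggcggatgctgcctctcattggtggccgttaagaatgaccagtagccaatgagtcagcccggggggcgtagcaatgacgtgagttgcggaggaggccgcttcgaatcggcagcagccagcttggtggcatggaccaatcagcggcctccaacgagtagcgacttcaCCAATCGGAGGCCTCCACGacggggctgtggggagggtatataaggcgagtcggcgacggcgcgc
Pdia6: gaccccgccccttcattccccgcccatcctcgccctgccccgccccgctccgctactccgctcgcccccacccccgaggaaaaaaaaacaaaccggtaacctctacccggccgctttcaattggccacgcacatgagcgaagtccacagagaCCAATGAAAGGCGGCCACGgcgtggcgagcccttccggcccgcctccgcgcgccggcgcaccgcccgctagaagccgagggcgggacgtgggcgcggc
Counted from the start of the gene, the match begins at base -29 in Maff, -166 in Per1, -65 in Hspa5 and -98 in Pdia6. These matches describe the sequence only, and binding was not measured.

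Genes downstream of activity divided. Rrad, a small GTPase that inhibits voltage-gated calcium channels, stood at 7.86 and 7.22 at 2 h, at 5.96 and 5.93 at 6 h and at 5.44 and 5.04 in sham. Its difference of -1.60 ± 0.40 was -1.59 without replicate 1 at 6 h and -1.58 without replicate 2. Bdnf, the activity-regulated neurotrophin, stood at 6.06 and 5.71 at 2 h and at 6.32 and 5.80 at 6 h, with overlap and a difference of 0.17 ± 0.42. Arc, a regulator of synaptic glutamate receptors, was not tested. Its 6 h arrays were far apart, at 6.23 and 4.29. Homer1, a postsynaptic scaffold, differed by -0.59 ± 0.46, and Nptx2, a secreted pentraxin that clusters glutamate receptors, by -0.41 ± 0.43, both with overlap. The second probe set of Homer1 differed by -1.33 ± 0.59 without overlap. Of the 24 effectors on the array 19 were tested; 8 were higher and 11 lower, 3 of the lower ones without overlap, with a median of -0.14. That median turned to 0.0057 when the arrays were left unscaled.

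The brakes on kinase signalling were near even in direction, but without overlap more were lower than higher. Of 13 tested genes of 19 on the array, 6 were higher, 2 without overlap, and 7 lower, 5 without overlap. The median of -0.17 became 0.19 without replicate 1 at 6 h. Dusp1, a phosphatase that inactivates MAP kinases, differed by 0.20 ± 0.44 and Dusp6 by 0.42 ± 0.53, and the receptor tyrosine kinase inhibitors Spry2 and Spred1 by 0.09 ± 0.44 and -0.21 ± 0.48. All 4 had overlapping arrays. Dusp16 differed by 0.19 ± 0.43 without overlap. Of the 5 lower genes without overlap, which are not named here, 1 was at least 2-fold lower. The MAP kinase and PI3 kinase genes had 5 of 11 higher, none without overlap, and 6 lower, 3 without overlap. Their median was -0.14 (0.050 without scaling).

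The 2 smallest p-values of all tested probe sets belonged to Man1a and Fam107b. Man1a, a Golgi mannosidase that trims N-linked glycans, stood at 7.85 and 7.71 at 2 h, at 5.31 and 5.81 at 6 h and at 6.80 and 6.58 in sham. The 6 h arrays lay below sham and the 2 h arrays above it, and the difference of -2.23 ± 0.37 was 4.68-fold (unadjusted p = 0.000104, adjusted p = 0.688). Fam107b stood at 8.12 and 7.98 at 2 h and at 5.67 and 5.94 at 6 h, against 6.84 and 6.21 in sham, a difference of -2.25 ± 0.38. Of its 3 tested probe sets 2 were lower at 6 h and the third differed by 0.11. Over 13 alternatives the difference ranged from -2.69 to -1.49 for Man1a and from -2.62 to -1.59 for Fam107b.

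Extracellular matrix genes and growth factor binding proteins held 2 of the 12 genes with the smallest p among those lower at 6 h. Igfbp5, which binds insulin-like growth factors, stood at 6.87 and 6.92 at 2 h, close to the sham arrays at 6.94 and 7.17, and at 4.02 and 5.37 at 6 h. Its difference of -2.20 ± 0.47 was -1.51 without replicate 1 at 6 h. Lamc1, the laminin gamma 1 chain of basement membranes, stood at 7.16 and 7.74 at 2 h, at 5.89 and 5.81 at 6 h and at 5.75 and 5.34 in sham, a difference of -1.60 ± 0.40. Unlike Igfbp5, its 6 h arrays lay just above the sham arrays. The second probe set of each was less far apart and overlapped, at -0.46 for Igfbp5 and -0.23 for Lamc1. Col4a1, a collagen IV chain of the same membranes, differed by -0.88 ± 0.42 without overlap (-0.37 without replicate 1 at 6 h), and its partner Col4a2 by -0.11 ± 0.44 with overlap. Of 14 tested genes of 18 on the array, 9 were lower, 6 of them without overlap, and 5 higher, 1 without overlap. The median of -0.17 stayed below 0 in all 14 alternatives, from -0.23 to -0.022.

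The other genes with small p-values below their 2 h level were of mixed function. Lfng, a glycosyltransferase that modifies Notch, stood at 7.52 and 7.40 at 2 h and at 5.91 and 6.10 at 6 h (-1.46 ± 0.36). Rwdd3, an enhancer of SUMO conjugation, stood at 8.44 and 7.96 and then at 5.78 and 6.60 (-2.01 ± 0.49). Mul1, a ubiquitin ligase of mitochondria, differed by -1.60 ± 0.42 (-1.03 without replicate 2 at 2 h), and Riok2, a kinase of ribosome assembly, by -1.50 ± 0.39. The second probe sets of Rwdd3 and Mul1 differed by -1.01 and -1.10, and those of Lfng and Riok2 by -0.09 and -0.05. Cttn, the actin-binding protein cortactin, is named for the size of its difference, -2.19 ± 0.73. That value came from 1 array: the probe set stood at 8.89 and 6.10 at 2 h and at 5.30 on both 6 h arrays, and without replicate 1 at 2 h the difference was -0.80. Only 2 of its 4 tested probe sets were lower. Pcdhb19, a clustered protocadherin, differed by -2.09 ± 0.66, and its sham arrays were as far apart as 4.04 and 6.27. Vtn, for vitronectin, which mural cells make, differed by -1.89 ± 0.64 (-1.19 without replicate 1 at 2 h) and stood at 8.87 and 7.45 at 2 h and at 6.43 and 6.10 at 6 h.

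Glucocorticoid-responsive genes were examined because ECS drives the adrenal axis that the PVN controls. Hif3a, a hypoxia-inducible factor subunit, stood at 6.88 and 5.75 at 2 h and at 4.11 and 4.27 at 6 h. The 6 h arrays lay at the floor beside the sham arrays, at 4.06 and 4.13, so the difference of -2.12 ± 0.56 depends on the offset (-0.97 with 64, -4.33 with 1). It too passed the filter only through the 2 h arrays. Zbtb16, a zinc finger factor, stood at 7.01 and 6.11 at 2 h and at 5.62 and 5.26 at 6 h (-1.12 ± 0.51, and -0.68 without replicate 1 at 2 h). Tsc22d3, which encodes the leucine zipper protein GILZ, stood at 7.75 and 8.06 at 2 h and at 7.30 and 7.27 at 6 h (-0.62 ± 0.34), and its other probe sets differed by -0.01 and -0.66. Sgk1, a kinase that regulates ion transport, stood at 7.25 and 7.42 at 2 h and at 5.99 and 6.95 at 6 h, with a difference of -0.38 once replicate 1 at 6 h was left out.

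Some other members of that list overlapped between the times. Fkbp5, a co-chaperone of the glucocorticoid receptor, stood at 6.64 and 6.34 at 2 h and at 6.72 and 6.18 at 6 h (-0.04 ± 0.43). The metallothioneins Mt1 and Mt2, which bind zinc and copper, differed by 0.20 ± 0.38 and -0.15 ± 0.31 with overlapping arrays. Of the 17 tested genes of 18 on the array, 13 were lower, 6 without overlap, and 4 were higher, none without overlap. Over all 18, 13 were lower with a median of -0.20. The median of the tested genes was -0.26, but it was 0.039 within replicate 1 and -0.42 within replicate 2, and -0.056 without replicate 2 at 6 h. Nr3c1, the glucocorticoid receptor itself, stood at 7.96 and 8.72 at 2 h and at 8.57 and 9.20 at 6 h, overlapping, with a difference of 0.54 ± 0.45.

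Clock genes were listed because the groups differ by hours, and the sources used here do not give the clock time of collection. Per1, an early gene and clock repressor whose E-box-bearing promoter is shown above, stood at 5.70 and 5.98 at 2 h. At 6 h its arrays lay on both sides of these values, at 6.27 and 4.59, and the difference of -0.41 ± 0.56 was 0.57 in replicate 1 and -1.38 in replicate 2. Clock, the activator that binds E-boxes, stood at 7.19 and 6.88 at 2 h and at 6.53 and 6.09 at 6 h (-0.73 ± 0.37), and both its probe sets were lower. Cry1, a partner of the Per proteins, differed by -0.37 ± 0.38 with overlap, Per3 by -0.54 ± 0.50 and Npas2 by 0.32 ± 0.42. In all, 10 of 17 tested clock genes were lower, 2 without overlap, and 7 higher, with a median of -0.067 that turned to 0.031 without scaling and to 0.22 without replicate 2 at 6 h. The E-box CACGTG stood in the promoters of 4 of 17 clock genes with a promoter in the table (Per1, Cry1, Tef and Bhlhe41) and in 8.09% of all genes (7.15% of all promoters).

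Most folding genes of the endoplasmic reticulum had a slightly higher mean at 6 h. Of 18 tested genes of 20 on the array, 14 were higher, 5 without overlap, and 4 lower, 1 without overlap. The median was 0.16, from 0.066 to 0.33 over 14 alternatives, and 0.20 and 0.093 in the 2 replicates. Xbp1, the transcription factor that drives the unfolded protein response, stood at 9.06 and 9.34 at 2 h and at 9.87 and 9.43 at 6 h, against 8.90 and 8.89 in sham (0.45 ± 0.27, and 0.23 without replicate 1 at 6 h). Of its 4 tested probe sets 3 were higher. Pdia6, a disulphide isomerase, stood at 6.56 and 6.95 at 2 h and at 7.03 and 6.96 at 6 h, both above the sham arrays at 6.16 and 5.93 (0.24 ± 0.37, and 0.040 without replicate 1 at 2 h), and Pdia4 differed by 0.17 ± 0.39. Hspa5, the main chaperone of the compartment, overlapped between times at 10.66 and 11.00 against 10.79 and 10.99 (0.06 ± 0.19). The endoplasmic reticulum stress element, CCAAT and CCACG with 9 bases between them, stood in the promoters of 9 of 18 of these genes with a promoter in the table and in 0.137% of all genes (0.119% of all promoters). The 9 were Hspa5, Pdia6, Hsp90b1, Calr, Canx, Dnajc3, Creld2, Syvn1 and Ero1b.

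Other stress genes gave no common direction. The integrated stress response genes were 7 higher and 9 lower of 16 tested, with a median of -0.033 that was above 0 without scaling (0.16) and with median scaling (0.063). Atf4, its transcription factor, held at 10.27 and 10.26 at 2 h and 10.31 and 10.18 at 6 h, and Ddit3, for the factor CHOP, differed by -0.33 ± 0.32. Sesn2, a stress-inducible inhibitor of mTORC1 signalling, differed by -1.25 ± 0.52 without overlap, but by -0.72 without replicate 1 at 6 h, and its other probe set differed by 0.26. Among the heat shock genes the inducible Hsp70 genes were lower: Hspa1a stood at 6.46 and 6.98 at 2 h and at 5.06 and 5.88 at 6 h (-1.25 ± 0.51, and -0.83 without replicate 1 at 6 h), and Hspa1b differed by -0.84 ± 0.41. The 2 genes are near-identical copies, so their probe sets may not separate them. The constitutive Hspa8 and Hsp90aa1 differed by 0.08 ± 0.11 and 0.15 ± 0.18 with overlap. Of the other Hspa8 probe sets, 1 differed by -1.39 ± 0.57 without overlap. The 16 tested heat shock genes had 7 higher, none without overlap, and 9 lower, 4 without overlap (median -0.089, and 0.12 without scaling). Srxn1, sulfiredoxin, which reactivates peroxiredoxins, stood at 9.28 and 9.54 at 2 h and at 9.24 and 10.11 at 6 h, above both sham arrays at 8.63 and 8.39 (0.27 ± 0.32).

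**Figure D3:**
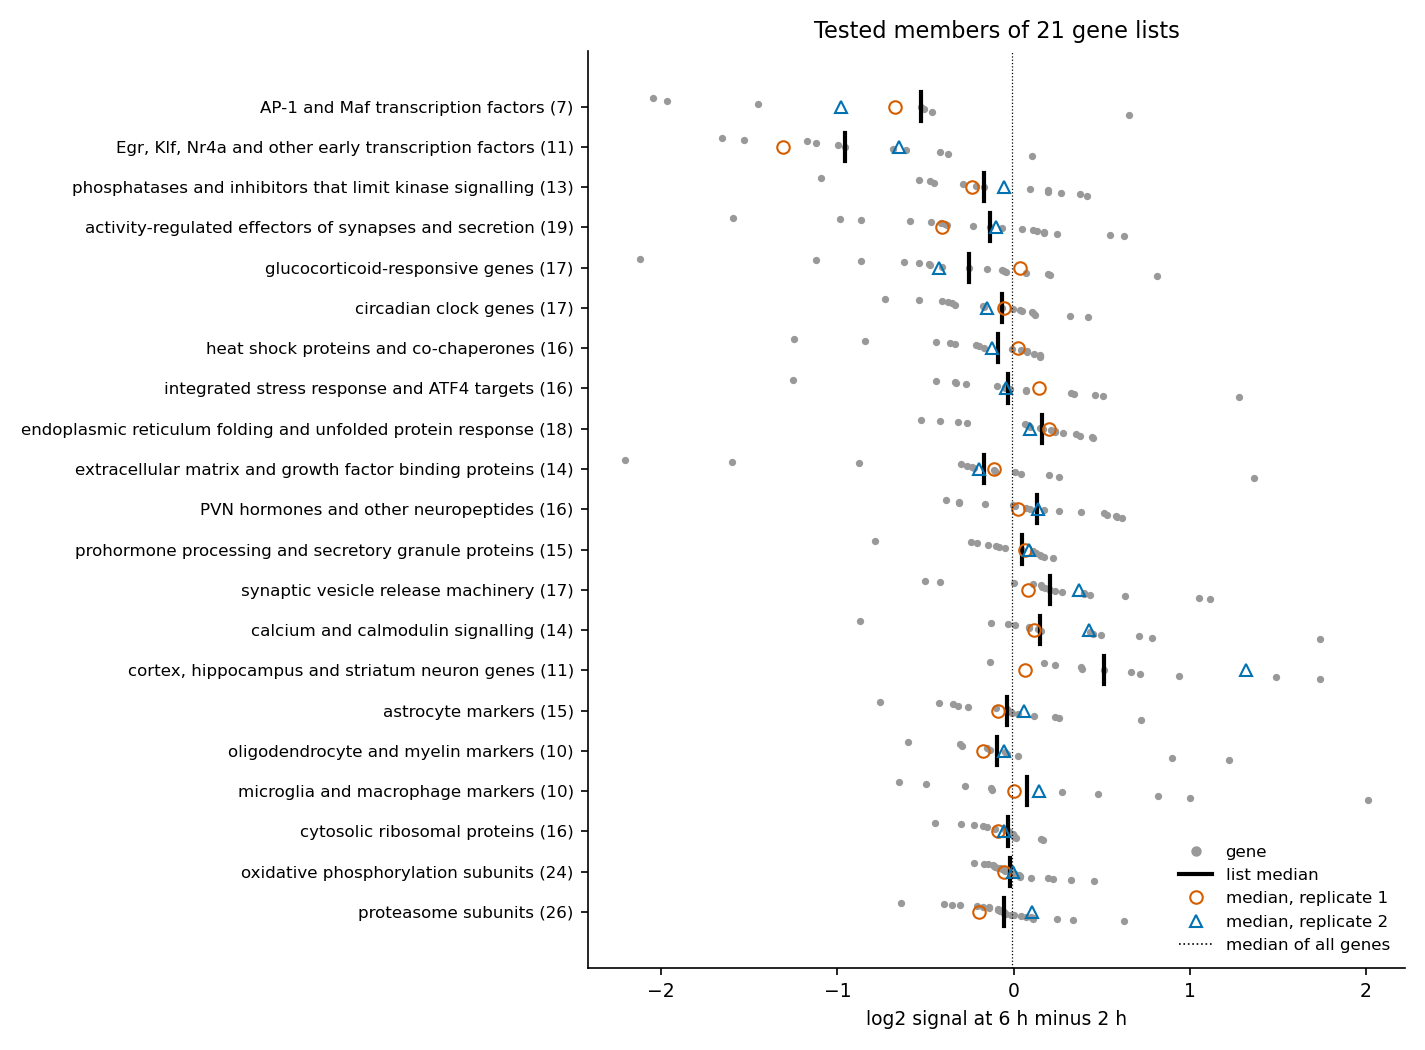
Grey points are the tested members of 21 gene lists (number in brackets) by their log2 difference of 6 h from 2 h, the black bar is the list median, and open circles and triangles are the medians within replicate 1 and replicate 2. The 2 lists of early transcription factors have medians of -0.53 and -0.96 and the forebrain neuron list has 0.51, where the 2 replicates give 0.066 and 1.32.

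The hormone genes that define the PVN differed little between the times. Oxt stood at 11.13 and 10.87 at 2 h and at 11.49 and 11.03 at 6 h, with overlap (0.26 ± 0.19, and 0.027 without replicate 1 at 6 h). Avp stood at 10.14 and 9.95 and at 10.15 and 10.08 (0.07 ± 0.23). Trh gave 10.08 and 10.52 at 2 h and 9.85 and 10.15 at 6 h (-0.31 ± 0.32). Sst, for somatostatin, differed by -0.16 ± 0.34, and by 0.049 without scaling. The arrays did not overlap for Penk, the enkephalin precursor, at 8.26 and 8.01 against 9.17 and 8.34 (0.62 ± 0.36, and 0.20 without replicate 1 at 6 h). Pdyn, the dynorphin precursor, differed by -0.01 ± 0.56, and at each time replicate 2 was the higher. Crh was not analysed here. In all, 11 of 16 tested peptide genes were higher, 2 without overlap, and 5 lower, 1 without overlap. The median of 0.13 was 0.029 without replicate 1 at 6 h, 0.035 without replicate 2 at 2 h and 0.28 without replicate 1 at 2 h.

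The machinery that cuts and packs these peptides was also close to even. Pcsk1, the prohormone convertase that cuts many neuropeptide precursors, stood at 8.76 and 8.58 at 2 h and at 8.96 and 8.47 at 6 h (0.05 ± 0.32), and all 4 of these values were above the sham arrays at 7.88 and 8.16. Cpe, the carboxypeptidase of the same pathway, differed by 0.11 ± 0.13. Chgb, a granin that fills secretory granules, stood at 10.45 and 10.48 at 2 h and at 10.51 and 10.87 at 6 h, just without overlap (0.22 ± 0.19, and 0.049 without replicate 2 at 6 h), and Chga differed by -0.08 ± 0.34. Of 15 tested granule genes 8 were higher and 7 lower. Their median of 0.047 turned to -0.13 without replicate 1 at 2 h and to -0.023 without replicate 2 at 6 h, and was 0.16 without replicate 1 at 6 h. Of the 6 tested hypothalamic patterning and PVN factors 5 were lower, 1 without overlap, and 1 higher. Their median of -0.14 was 0.049 without scaling, and 0.080 and -0.0046 within the 2 replicates. Sim1 stood at 8.80 and 8.16 at 2 h and at 8.38 and 8.35 at 6 h. Peg3, an imprinted gene abundant in the hypothalamus, differed by -0.16 ± 0.15 (0.036 without scaling). Pou3f2, Arnt2 and Isl1 differed by -0.32 ± 0.51, -0.09 ± 0.45 and -0.16 ± 0.63 with overlap.

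**Figure D4:**
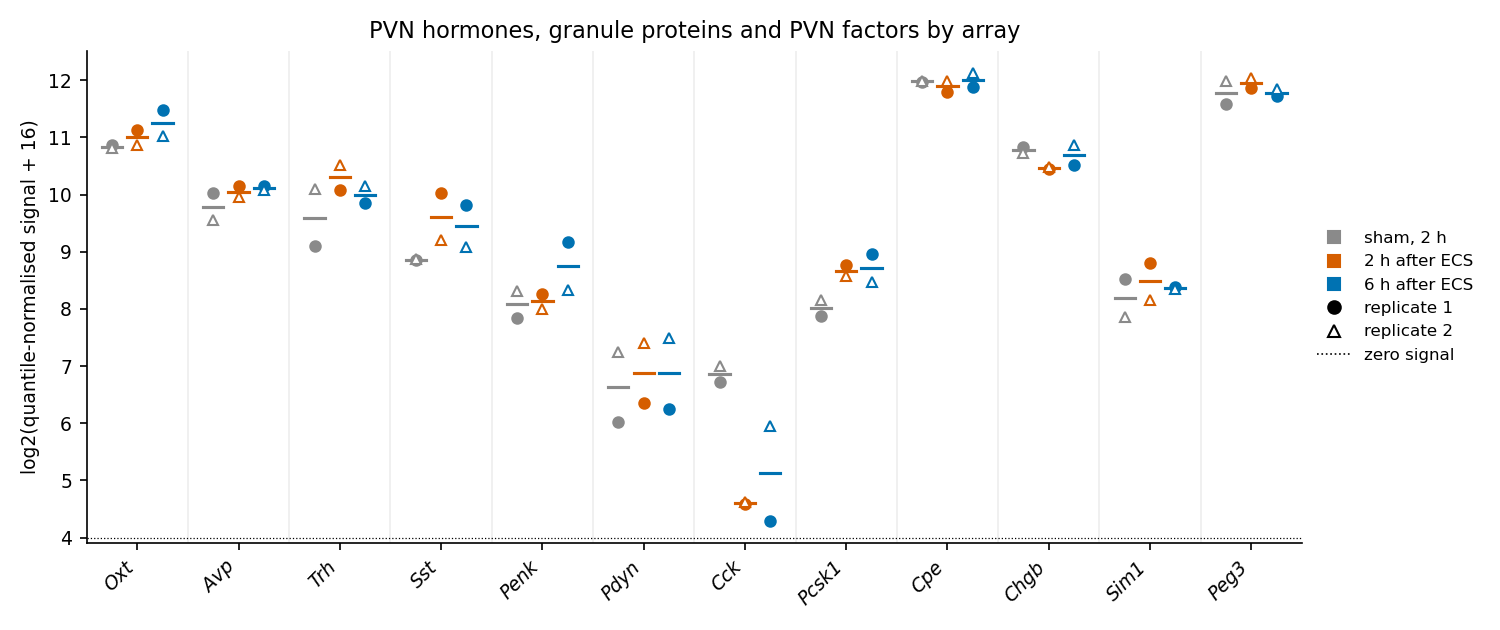
Points give the log2 signal of 12 hormone, granule and PVN factor genes on each array, with circles for replicate 1, triangles for replicate 2, bars for group means and a dotted line at 4 for no signal. Oxt, Avp, Trh and Cpe lie high in all groups, and the mean of Trh is 9.60 in sham and 10.30 at 2 h. Cck lies between 4.30 and 4.63 in 3 of the 4 ECS arrays and at 5.95 in replicate 2 at 6 h.

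In the opposite direction, C1qc had the smallest p among tested genes higher at 6 h. This gene encodes a chain of complement C1q, which microglia make. It stood at 4.97 and 5.67 at 2 h, at 7.34 and 7.32 at 6 h and at 6.19 and 6.22 in sham, so that the 6 h arrays lay above and the 2 h arrays below both sham arrays. The difference of 2.01 ± 0.40 was 4.03-fold, and it was 1.98 without replicate 1 at 6 h. For the other chains, C1qa differed by -0.50 ± 0.49 and C1qb by -0.12 ± 0.31. Of 10 tested microglia and macrophage genes 5 were higher, 2 without overlap, and 5 lower, 2 without overlap, with a median of 0.076. The summed signal of these markers was 1896 and 2045 at 2 h and 2278 and 2201 at 6 h, against 2291 and 2166 in sham.

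Other genes higher at 6 h with small p-values came from several functions. Tmem109, a membrane protein of the nuclear envelope and endoplasmic reticulum, stood at 4.88 and 5.67 at 2 h and at 6.85 and 7.26 at 6 h (1.79 ± 0.45), and its other probe sets differed by 0.45 and 1.04. Borcs5, a subunit of a complex that positions lysosomes, stood at 4.52 and 4.89 and then at 6.70 and 6.21 (1.75 ± 0.44). Nfix, a nuclear factor I transcription factor, stood at 5.35 and 5.45 at 2 h and at 6.80 and 6.60 at 6 h, both below the sham arrays at 7.96 and 7.76 (1.30 ± 0.36), and its other probe sets differed by 0.65 and 0.19. Kcnj6, a G protein-gated potassium channel that lowers excitability, stood at 4.24 and 5.46 and then at 6.28 and 6.91 (1.74 ± 0.50, and 1.14 without replicate 1 at 2 h), and Kcnd3, a subunit of A-type potassium channels, differed by 1.04 ± 0.45 without overlap (0.62 without replicate 1 at 2 h). Of the 14 tested channel genes, 8 were higher, 2 without overlap, and 6 lower, 4 without overlap. Smu1, a splicing factor, stood at 8.55 and 8.71 at 2 h and 9.66 and 9.60 at 6 h (1.00 ± 0.25). Its second probe set, however, differed by -0.24. Cd47 stood at 9.16 and 9.20 at 2 h and at 9.87 and 10.02 at 6 h (0.76 ± 0.22). Only 2 of its 4 tested probe sets were higher.

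Several large differences were smaller without replicate 1 at 6 h, the array that stood apart. Irak1, a kinase of interleukin 1 and Toll-like receptor signalling, stood at 11.64 on that array and 8.23 on the other, against 7.44 and 7.82 at 2 h. Its difference of 2.30 ± 0.80 became 0.59 without that array. Mycn, a factor of the Myc family, stood at 8.19 and 6.31 at 6 h and 4.81 and 5.49 at 2 h, and its difference of 2.10 ± 0.59 became 1.16. Ogfrl1 (1.66 ± 0.45) and Ccnd2, for cyclin D2 (1.80 ± 0.57), became 1.09 and 1.15. Natd1 differed by 1.74 ± 0.59, by 1.13 without that array and by 0.96 without replicate 2 at 2 h. 6430548M08Rik differed by 1.53 ± 0.45 and by 0.90 without replicate 1 at 6 h, and its other probe set by -0.15.

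Genes typical of neurons of cortex, hippocampus and striatum were higher at 6 h, mainly in replicate 2. Camk2a, the calcium/calmodulin-dependent kinase of forebrain synapses, stood at 5.73 and 6.78 at 2 h, at 7.19 and 8.79 at 6 h and at 8.88 and 9.11 in sham (1.74 ± 0.53, and 0.94 without replicate 2 at 6 h). Kalrn, an exchange factor of dendritic spines, stood at 7.43 and 7.02, then at 8.18 and 9.24, against 10.58 and 10.01 in sham (1.49 ± 0.39, and 0.96 without replicate 2 at 6 h), and its other tested probe set differed by -0.49. Tbr1, a factor of cortical projection neurons, stood at 4.42 and 4.27 at 2 h and at 4.49 and 6.08 at 6 h (0.94 ± 0.56, and 0.14 without replicate 2 at 6 h). Cck, a peptide of many cortical interneurons, stood at 4.59 and 4.63 and then at 4.30 and 5.95, against 6.72 and 7.01 in sham. For each of these 4 genes the sham arrays were above both ECS groups, and replicate 2 at 6 h was the highest ECS array. Nrgn and Lmo4, also on this list, differed by 0.17 ± 0.59 and 0.39 ± 0.55 with overlap. Without replicate 1 at 2 h their differences were -0.30 and -0.52. Of 11 tested genes of 15 on the array, 10 were higher, 3 without overlap, and the median of 0.51 was 1.55 without replicate 1 at 6 h and 0.014 without replicate 2. The summed signal of all 15 was 920 and 1276 at 2 h, 1576 and 2477 at 6 h and 3823 and 3674 in sham. Neurod6, a factor of cortical excitatory neurons, was not tested and stood near the floor at 4.18 on both 2 h arrays, at 4.16 and 5.50 at 6 h and at 5.22 and 6.16 in sham.

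Genes of the synaptic vesicle release machinery were mostly higher as well. Of 17 tested genes 15 were higher at 6 h, 7 without overlap, and 2 lower, none without overlap, with a median of 0.21 that ranged from 0.088 to 0.40 over the alternatives. It was 0.079 in replicate 1 and 0.37 in replicate 2. Snap25, a SNARE protein of the fusion complex, stood at 12.30 and 12.05 at 2 h and at 12.35 and 12.43 at 6 h, against 12.74 and 12.54 in sham (0.21 ± 0.12, and 0.087 without replicate 2 at 2 h). Syt1, the calcium sensor of release, stood at 7.45 and 8.83 and then at 8.79 and 9.72 (1.11 ± 0.45), with overlap, and its other probe set differed by -0.09. Stx1a and Vamp2, also SNARE proteins, differed by 0.20 ± 0.33 and 0.11 ± 0.20 with overlap. Vamp1, a further SNARE protein, was lower with overlap (-0.42 ± 0.38), and its other probe set differed by -0.17. Calcium and calmodulin genes were 11 higher, 5 without overlap, and 3 lower of 14 tested. Their median of 0.15 was 0.44 without replicate 1 at 6 h, 0.016 without replicate 2 at 6 h and 0.021 without replicate 1 at 2 h. Within them Camk2b and Camk2g differed by 0.15 ± 0.39 and 0.14 ± 0.35. Camk2d and Camk4 differed by -0.03 ± 0.39 and -0.87 ± 0.53, both with overlap. Camk2a is on both this list and the forebrain neuron list. The forebrain neuron sums given above stood in the same order, and their part in the synaptic and calcium values was not tested. The neuron cytoskeleton and axon genes had 12 of 19 higher, 4 without overlap, and 7 lower, 1 without overlap. Their median of 0.070 was -0.027 without replicate 2 at 6 h. Tubb3, a neuronal tubulin, differed by 0.31 ± 0.21 without overlap (0.15 without replicate 2 at 6 h).

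**Figure D5:**
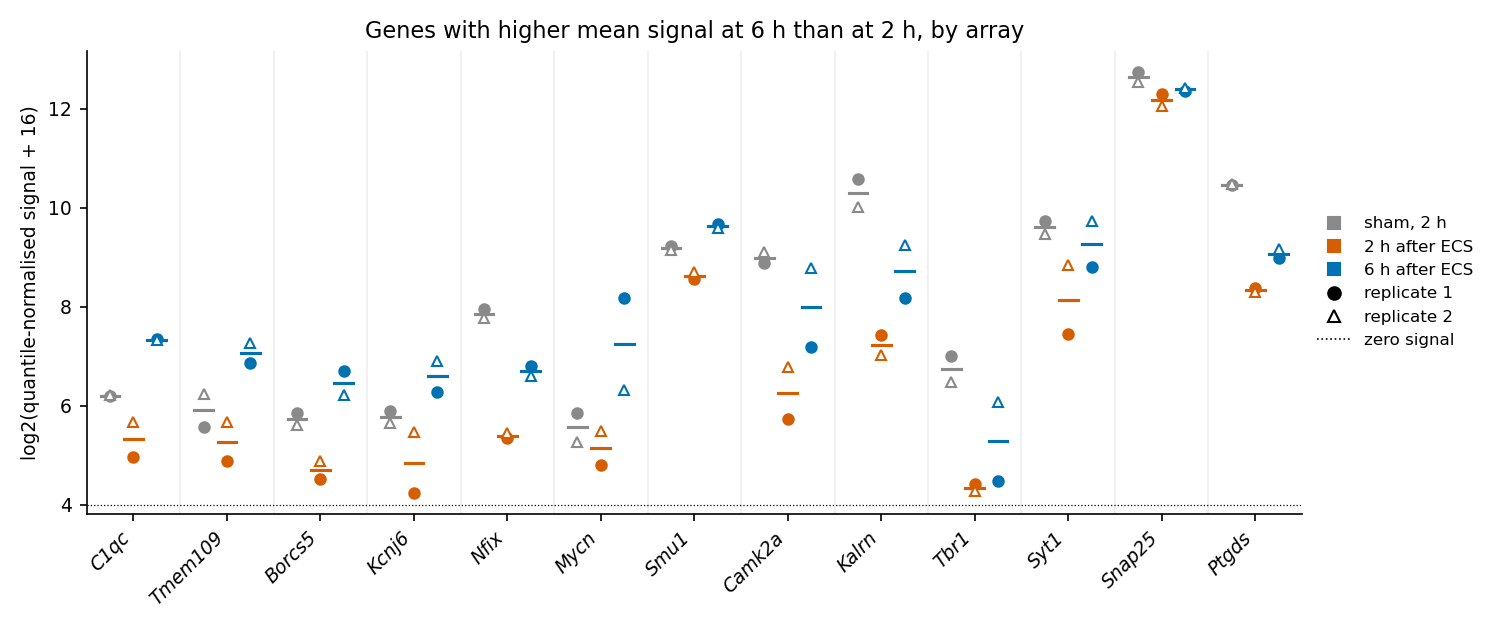
Points give the log2 signal of 13 genes with a higher mean at 6 h than at 2 h, with circles for replicate 1, triangles for replicate 2, bars for group means and a dotted line at 4 for no signal. C1qc, Tmem109, Borcs5 and Kcnj6 lie at 6 h above the sham and 2 h arrays, while Nfix, Camk2a, Kalrn and Ptgds lie between the 2 h and the sham arrays, and Mycn and Tbr1 differ strongly between the 2 arrays at 6 h.

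Markers of astrocytes, oligodendrocytes and vessels were more often lower than higher, with list medians near 0. Among 15 astrocyte genes 5 were higher, 3 without overlap, and 10 lower, 2 without overlap. Their median of -0.038 was above 0 without scaling (0.18) and with median scaling (0.085). Their summed signal was 13324 and 13545 at 2 h and 12956 and 13023 at 6 h, lower on both 6 h arrays. Slc1a3, the astrocyte glutamate transporter GLAST, stood at 9.79 and 9.71 at 2 h and 8.90 and 9.07 at 6 h (-0.76 ± 0.25). Of its 3 probe sets, however, 1 was higher. Gfap differed by 0.26 ± 0.35 without overlap (0.077 without replicate 1 at 2 h), and Aqp4 by 0.24 ± 0.37 with overlap. Aldh1l1 and Slc1a2 differed by -0.10 ± 0.42 and -0.32 ± 0.42 with overlap. The oligodendrocyte genes had 3 of 10 higher, 1 without overlap, and 7 lower, 3 without overlap (median -0.092, and 0.073 without scaling). Their sum was 3394 and 3335 at 2 h, 2837 and 3021 at 6 h and 4092 and 3770 in sham, so that both 6 h arrays were lowest. Mbp, myelin basic protein, differed by -0.31 ± 0.19 without overlap, with 5 of 7 probe sets lower. Endothelial and mural genes had 4 of 11 higher, 3 without overlap, and 7 lower, 2 without overlap (median -0.065, and 0.085 without scaling). Without overlap, Flt1 differed by 0.93 ± 0.51 (0.35 without replicate 1 at 2 h). Slco1a4 likewise differed by 0.63 ± 0.37 (0.41 without replicate 2 at 6 h). The endothelial junction gene Cldn5 lay between 6.35 and 7.98 in all 6 arrays, and both its highest and lowest values were in ECS replicate 1.

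Ptgds, which makes prostaglandin D2 and is strong in meninges and choroid plexus, stood at 8.38 and 8.29 at 2 h, at 8.98 and 9.17 at 6 h and at 10.46 and 10.47 in sham (0.73 ± 0.25), and its other probe set differed by 0.24. The summed signal of the 12 choroid plexus and meningeal genes was 466 and 462 at 2 h, 701 and 705 at 6 h and 1670 and 1543 in sham, a sum that is largely Ptgds itself. At 6 h these 12 genes divided into 6 above and 6 below their 2 h mean (median difference -0.013). Only 4 of them were tested, of which 3 were higher, all 3 without overlap, and 1 lower, with a median of 0.56. Beside Ptgds, Col1a1 and Col1a2 were higher, by 0.81 ± 0.49 and 0.38 ± 0.42. Igf2 was lower with overlap (-0.16 ± 0.62), and its other probe set differed by 0.38. Ttr, the defining transcript of choroid plexus, was not tested and lay between 4.49 and 5.16 in all 6 arrays, near the floor. Cytokine genes were mostly below the filter, since 5 of 21 on the array were tested, and of these 4 were lower and 1 higher.

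Genes of protein synthesis, respiration and protein turnover, which all cells use, lay near 0. The cytosolic ribosomal proteins had 5 of 16 higher and a median of -0.030, and those of oxidative phosphorylation 9 of 24 and -0.021. The proteasome genes had 9 of 26 higher and a median of -0.057. All 3 medians were above 0 without scaling, at 0.16, 0.18 and 0.14, and with median scaling, so no direction is given for them. Single members differed little, such as Rpl4 by 0.02 ± 0.14 and Ndufa1 by -0.01 ± 0.15.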

How the data were processed

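RNA of laser-dissected PVN was amplified and hybridised to Affymetrix mouse arrays, 1 pool of mice per array and 2 arrays per group. The deposited values are linear intensities made by the authors with MAS5, per the submitters' processing notes, which state no version. The number of arrays limits the precision. Here the intensities were quantile-normalised over the 6 arrays, 16 was added and log2 taken. Probe sets at or above their array's median on at least 2 of 6 arrays were tested with limma 3.58.1 in R 4.3.3 (all 6 arrays, contrast of 6 h minus 2 h, intensity trend, Benjamini-Hochberg adjustment, threshold 0.05). The procedure was tested on simulated data.

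A gene is given by its tested probe set of highest mean. Beside those said so in the results, at least 1 other tested probe set differed in the opposite direction for Sim1, Spred1, Nr3c1, Atf4, Hspa8, Hsp90aa1, Srxn1, Peg3, Vamp2, C1qb and Ccnd2. Gene names come from the platform annotation, where 20380 probe sets had 1 symbol, 691 several and 1555 none, and none was named from several. Named genes were drawn from the 12 with the smallest p in each direction and the first 5 tested members of each list. They also came from the 10 largest differences in each direction at least 2-fold apart without overlap and alike in both replicates. A further set held 20 hormone and early genes. Some genes of these sets, mainly list members, are not printed. Others are said to be chosen after their values were seen. The members and all 38 lists were chosen with earlier results of these data known. Lists are described by counts and medians, with no test. Marker sums add the normalised signals of all listed genes on the array. Same-numbered arrays deviated together from their group means (correlations 0.228, 0.185 and 0.151), so the number was read as the run, and a fit with it as a block is given. Promoters are from RefSeq (GRCm38.p6). Other offsets, scalings, filters and left-out arrays were tried. Crh was not analysed here.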

Additional observations from a re-analysis of the deposited data

How the results depend on the processing

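No probe set was called under another offset, scaling, filter or model, and 0 to 3 were when single arrays were left out, where the 3 came without replicate 2 at 6 h. With the replicate number as a block, 0 were called, and 720 instead of 438 had an unadjusted p under 0.05; the block changed no other call. The counts of probe sets at least 2-fold higher and lower without overlap, 167 and 216, were 383 and 450 with an offset of 1, 14 and 27 with an offset of 64, 324 and 122 without scaling, and 48 and 75 with the 75th percentile filter, which tests fewer probe sets. Leaving out single arrays gave 154 to 618 higher and 205 to 837 lower, with 1 array left in an arm having no spread to overlap with. Added after seeing the data, values within replicate 1 gave 855 and 970 and within replicate 2 gave 376 and 359. The cause of these shifts beyond the construction of each alternative was not tested. Of the 212 named genes 99 kept their sign under every alternative other than the values within a replicate, and so did the medians of 11 of 38 lists, among them both lists of early transcription factors, the glucocorticoid-responsive, synaptic vesicle, calcium, forebrain neuron, endoplasmic reticulum folding and extracellular matrix lists. Within replicate 1 the glucocorticoid-responsive median was above 0, at 0.039.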

Other observations

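Gene groups of fast transmission gave mixed values. Of 7 tested glutamate receptor subunits 6 were lower at 6 h and 1 higher, none without overlap, with a median of -0.14. It was 0.13 without replicate 1 at 6 h, 0.084 without replicate 2 at 2 h and -0.52 without replicate 2 at 6 h, and 0.00059 without scaling. The 8 tested GABA receptor subunits split into 4 higher and 4 lower, and the 9 genes of GABA and glutamate synthesis and transport into 4 and 5. Genes of cyclic AMP signalling and CREB targets were 7 higher and 3 lower of 10 tested, 1 of them without overlap, with a median of 0.20 that became -0.013 without replicate 1 and 0.015 without replicate 2 at 2 h.

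Genes of neighbouring hypothalamic and thalamic nuclei, listed to gauge the dissection, had a summed signal of 748 and 871 at 2 h, 958 and 803 at 6 h and 851 and 687 in sham. Of the 14 on the array 12 were higher at 6 h, with a median of 0.30, and of the 7 tested 6 were higher, with a median of 0.096 that was -0.068 without replicate 1 at 6 h. Their part in the other results was not tested. Ependymal genes summed to 692 and 650 at 2 h and to 894 and 737 at 6 h, and blood cell genes to 94.9 and 90.1 and to 107 and 90.9. Steroid and thyroid hormone receptors were 4 higher and 4 lower of 8 tested, and the antioxidant genes 5 higher and 10 lower of 15, with a median of -0.023 that was 0.18 without scaling.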
